A study of Homo sapiens with 6 samples.

Results

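Oxidative phosphorylation is carried out by 4 respiratory complexes and ATP synthase (complex V), and the genes of their subunits were followed in A549 cells, an established line derived from a human lung adenocarcinoma. Members were taken from the gene symbols of the array annotation: NDUFA, NDUFB, NDUFC, NDUFS and NDUFV genes for complex I, SDHA to SDHD for complex II, UQCR genes for complex III, COX4 to COX8 genes for complex IV, ATP5 genes for complex V, and the protein-coding genes of mitochondrial DNA. Only probe sets with exactly 1 gene symbol were used, which gave 81 probe sets for 80 genes out of 22395 genes measured in this way. Of the 80 genes, 72 are encoded in the nucleus and 8 in mitochondrial DNA. The annotation spells the mitochondrial genes without their MT- prefix, as ND1, ND2, ND3, ND5, ND6, CYTB, COX1 and COX2, so these 8 were identified by their Entrez numbers as protein-coding genes of mitochondrial DNA. Pseudogenes (3 probe sets) and 15 probe sets that carry several symbols, among them 1 for COX3 with ATP6 and 1 for ND4 with ND4L, were left out. SDHA, SDHB and UQCRFS1 were not analysed here.

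Cells were grown in medium with serum and given vehicle, Comp.2 or Comp.4 a day after plating, both compounds at 2 µM, and RNA was taken on day 2. Each group held 2 arrays. The series title describes histone acetyltransferase inhibitors directed to DNA sequences, and the labels name the agent 646-PIP in the design and 664-PIP in the treatment protocol, a difference that could not be settled here. All groups share the A549 background, and the labels name no genetic change and do not say that the arrays of a group came from separate cultures, so p-values measure a spread between arrays that may be technical only.

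As background, complex I oxidises NADH, complex II oxidises succinate, complex III passes electrons from ubiquinol to cytochrome c, and complex IV passes them to oxygen. Complexes I, III and IV pump protons across the inner membrane, and ATP synthase uses the gradient to make ATP. The subunits come from both genomes: mitochondrial DNA holds hydrophobic core subunits, transcribed inside the organelle as long precursors from both strands, while all others are nuclear genes whose proteins are imported. Many nuclear subunit genes are known to carry promoter sites for NRF1, for the ETS factor GABP and for YY1, and PGC-1 family coactivators act through such factors. ND6 is the protein-coding gene transcribed from the mitochondrial strand opposite to the others.

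RefSeq promoter windows (GRCh38.p14, 250 bases before to 50 bases after the start) were found for 59 of the 72 nuclear genes. The following 5 are shown, from 250 bases before to 30 bases after the start, because these genes had some of the largest differences described below: NDUFB7 (chr19:14572037-14572316, minus strand) and NDUFA2 (chr5:140647601-140647880, minus strand), highest under Comp.4; NDUFS1 (chr2:206159415-206159694, minus strand) and NDUFA3 (chr19:54102605-54102884, plus strand), lowest under Comp.4; and COX7B (chrX:77899218-77899497, plus strand), lowest under Comp.2. Each sequence runs 5′ to 3′ on the gene's strand, and capitals mark matches on either strand to CCGGAAG (an ETS site), GCATGCG (NRF1), AAGATGG (YY1) or CCAAT.
NDUFB7: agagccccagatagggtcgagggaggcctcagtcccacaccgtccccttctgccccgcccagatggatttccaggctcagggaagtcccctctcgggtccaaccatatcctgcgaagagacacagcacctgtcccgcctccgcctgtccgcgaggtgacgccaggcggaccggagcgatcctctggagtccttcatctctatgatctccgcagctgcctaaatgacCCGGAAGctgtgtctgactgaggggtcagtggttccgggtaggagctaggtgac
NDUFA2: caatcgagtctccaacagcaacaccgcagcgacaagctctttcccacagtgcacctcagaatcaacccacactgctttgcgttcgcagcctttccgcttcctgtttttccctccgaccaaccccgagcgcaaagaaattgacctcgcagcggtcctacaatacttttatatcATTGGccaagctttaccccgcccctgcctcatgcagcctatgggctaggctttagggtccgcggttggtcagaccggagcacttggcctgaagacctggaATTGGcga
NDUFS1: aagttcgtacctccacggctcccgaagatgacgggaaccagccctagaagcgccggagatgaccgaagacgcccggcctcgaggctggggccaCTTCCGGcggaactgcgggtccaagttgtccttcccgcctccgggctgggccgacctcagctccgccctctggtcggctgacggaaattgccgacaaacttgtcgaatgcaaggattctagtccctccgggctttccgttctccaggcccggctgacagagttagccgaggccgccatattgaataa
NDUFA3: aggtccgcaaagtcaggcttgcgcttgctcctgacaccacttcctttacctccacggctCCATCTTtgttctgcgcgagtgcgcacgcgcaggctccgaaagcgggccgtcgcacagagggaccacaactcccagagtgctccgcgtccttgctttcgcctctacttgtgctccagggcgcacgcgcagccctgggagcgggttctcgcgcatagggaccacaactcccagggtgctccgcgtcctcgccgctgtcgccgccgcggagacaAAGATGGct
COX7B: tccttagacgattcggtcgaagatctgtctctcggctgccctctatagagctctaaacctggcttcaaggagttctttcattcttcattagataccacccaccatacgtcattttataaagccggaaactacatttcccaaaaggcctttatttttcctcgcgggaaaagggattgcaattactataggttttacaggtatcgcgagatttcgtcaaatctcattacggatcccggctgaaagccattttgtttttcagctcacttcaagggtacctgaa

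The capitals show an ETS match in NDUFB7 and NDUFS1, CCAAT matches in NDUFA2, YY1 matches in NDUFA3 and no match in COX7B. Over the full windows of the 59 genes, 27.1% held CCGGAAG, against 14.5% of 13842 measured protein-coding genes and 10.7% of 27305 RefSeq promoters. The NRF1 letters GCATGCG were in 20.3% of the OXPHOS windows, against 5.07% and 4.13%, and the YY1 letters AAGATGG in 25.4%, against 6.55% and 6.06%. CCAAT was in 35.6% against 36.3% and 35.7%. These are matches of letters in a fixed window, searched on both strands, and they describe the sequences only. The Comp.4 difference from vehicle had a median of 0.11 on the log2 scale in the 16 genes with the ETS letters and 0.14 in the 43 without, and of 0.12 in the 12 genes with the NRF1 letters and 0.13 in the 47 without. Genes with the YY1 letters (15) had a median of 0.09, and the 44 without them 0.13. Those with CCAAT (21) had 0.07 and the 38 without it 0.13. The GC box letters GGGCGG were in 61.0% of the OXPHOS windows, against 60.1% and 44.6%, with a median of 0.14 in the 36 genes that hold them and 0.10 in the 23 others. TATAAA was in 11.9%, against 9.20% and 12.0%, with medians of 0.11 in 7 genes with it and 0.13 in 52 without.

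The levels are log2 values on an array scale, and a difference of 1 is a doubling. Their values ran from 1.80 to 13.26 over the whole table, and array medians lay between 4.55 and 4.56. The epithelial identity of the cells was visible in 6 of 8 epithelial markers with a mean above the median gene, over a range of 4.95 to 10.2. Of the markers of other cell types, 1 of 6 for fibroblasts (range 2.78 to 5.44), 2 of 7 for endothelium (4.02 to 6.35) and 2 of 7 for leukocytes (2.69 to 8.95) were above the median gene. The leukocyte marker CD68, which encodes a lysosomal protein, was called higher under Comp.2 (log2 0.67, limma adjusted p = 0.0412), while PTPRC, the defining leukocyte gene, had means of 2.70 in vehicle, 2.71 under Comp.2 and 2.68 under Comp.4. The part of other cells in the results was not tested. Precision is limited by there being 2 arrays in a group: the 95% interval of a member's difference reached between 0.16 and 0.35 to either side of it. Differences were tested with limma over all 22395 genes, and a call means an adjusted p under 0.05.

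Against vehicle, no OXPHOS gene passed that test under either compound, nor did any between the compounds. The percentage of all genes called was 0.196% under Comp.2, 0.147% under Comp.4 and 0.371% between Comp.4 and Comp.2, so calls were rare among all genes too. The differences were small, with every one of the 80 genes under 1.5-fold in each comparison. Under Comp.2 the mitochondrial genes had a median difference of 0.15 and the nuclear genes 0.01. Under Comp.4 the medians were 0.07 and 0.10, while the median over all genes was 0.00 under Comp.2 and 0.02 under Comp.4. The means of all nuclear members per group were 7.23 ± 0.016 (SD, n = 2) in vehicle, 7.22 ± 0.0034 under Comp.2 and 7.32 ± 0.0044 under Comp.4. The mean of the 8 mitochondrial genes was 12.21 ± 0.0028 in vehicle, 12.37 ± 0.0039 under Comp.2 and 12.30 ± 0.026 under Comp.4. Both comparisons use the same vehicle arrays, so their differences are given side by side and were not correlated.

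**Figure D1:**
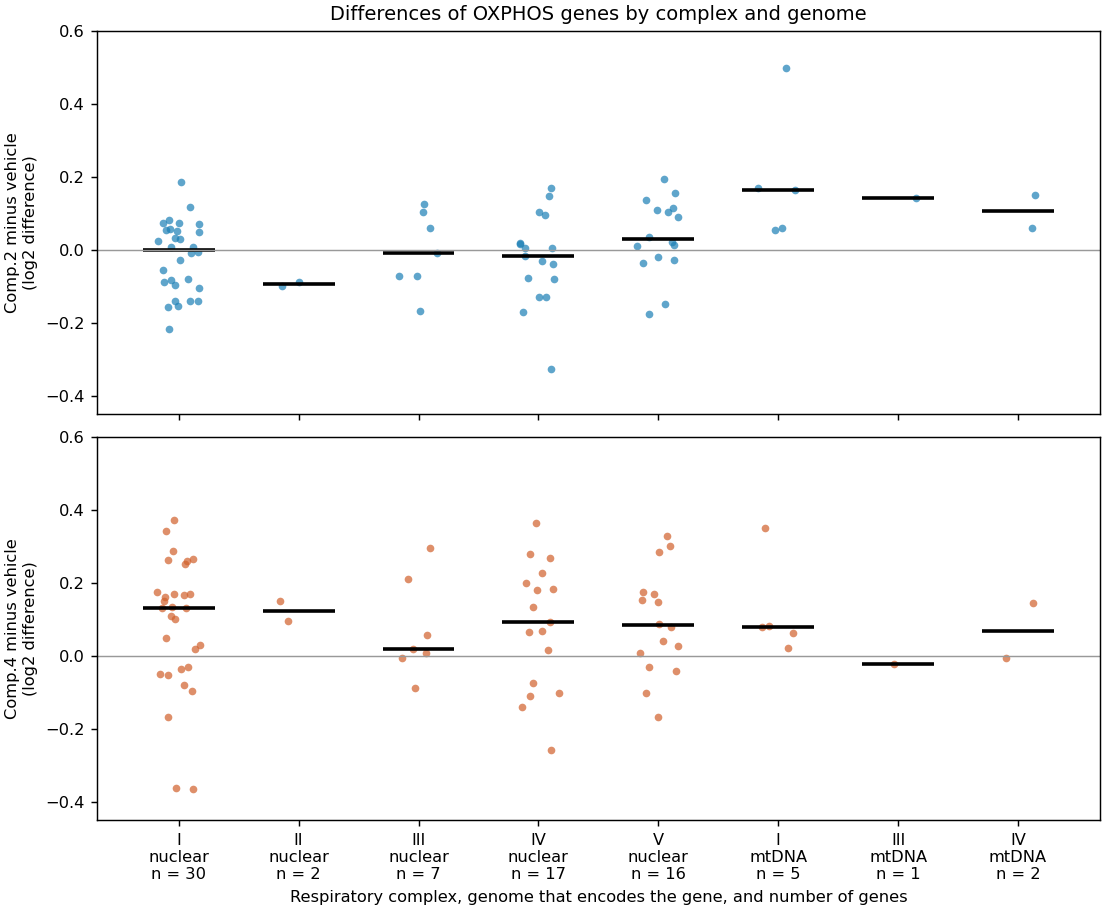
Log2 difference from vehicle of each of the 80 OXPHOS genes (points, 1 per gene) under Comp.2 (upper panel) and Comp.4 (lower panel), by complex and by the genome that encodes the gene; the bar is the median and the horizontal scatter has no meaning. Under Comp.2 the nuclear medians lie between -0.09 (complex II, 2 genes) and 0.03 (complex V). The 30 nuclear complex I genes have a median of 0.13 under Comp.4.

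The first comparison asked what Comp.2 did to the 8 genes of mitochondrial DNA. In all 8, both Comp.2 arrays lay above both vehicle arrays, a pattern shown by 22.7% of all genes. The largest difference was that of ND6, a complex I subunit. Its levels were 9.16 and 9.11 in vehicle, 9.63 and 9.64 under Comp.2, and 9.54 and 9.43 under Comp.4. The 3 groups did not overlap, with vehicle lowest and Comp.2 highest. ND6 was 1.41-fold higher under Comp.2 (log2 0.50, SE 0.07, limma adjusted p = 0.0897) and 1.27-fold higher under Comp.4 (0.35, SE 0.07, limma adjusted p = 0.115), and neither difference passed.

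The other complex I genes of mitochondrial DNA differed less. ND5 was at 12.60 and 12.68 in vehicle, 12.80 and 12.82 under Comp.2, and 12.66 in both Comp.4 arrays. The Comp.2 arrays were the highest and the Comp.4 arrays fell within the vehicle range (Comp.2 difference 0.17, limma adjusted p = 0.439). ND1 had 12.73 and 12.76 in vehicle, 12.91 in both Comp.2 arrays, and 12.85 and 12.81 under Comp.4, an order of vehicle, Comp.4, Comp.2 without overlap. ND2 and ND3 differed from vehicle by 0.06 each under Comp.2 and by 0.06 and 0.08 under Comp.4, within 95% intervals that include 0.

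CYTB, the complex III subunit that holds the quinone sites, was at 12.61 and 12.60 in vehicle, 12.74 and 12.75 under Comp.2, and 12.62 and 12.54 under Comp.4. Its Comp.2 arrays stood above the other 4, which overlapped. Of the catalytic subunits of complex IV, COX2 was at 12.65 and 12.69 in vehicle, 12.82 in both Comp.2 arrays, and 12.84 and 12.79 under Comp.4. The COX2 arrays were thus above vehicle by nearly the same amount under both compounds (0.15 and 0.14). The 95% intervals of these differences were -0.01 to 0.31 and -0.02 to 0.31. The difference between the compounds was -0.01 with a 95% interval of -0.17 to 0.16. COX1 had 13.01 in both vehicle arrays, 13.08 and 13.06 under Comp.2, and 13.01 and 12.99 under Comp.4. The intervals of CYTB and COX1 against vehicle also included 0 under both compounds, as did those of ND1 and ND5 under Comp.4.

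**Figure D2:**
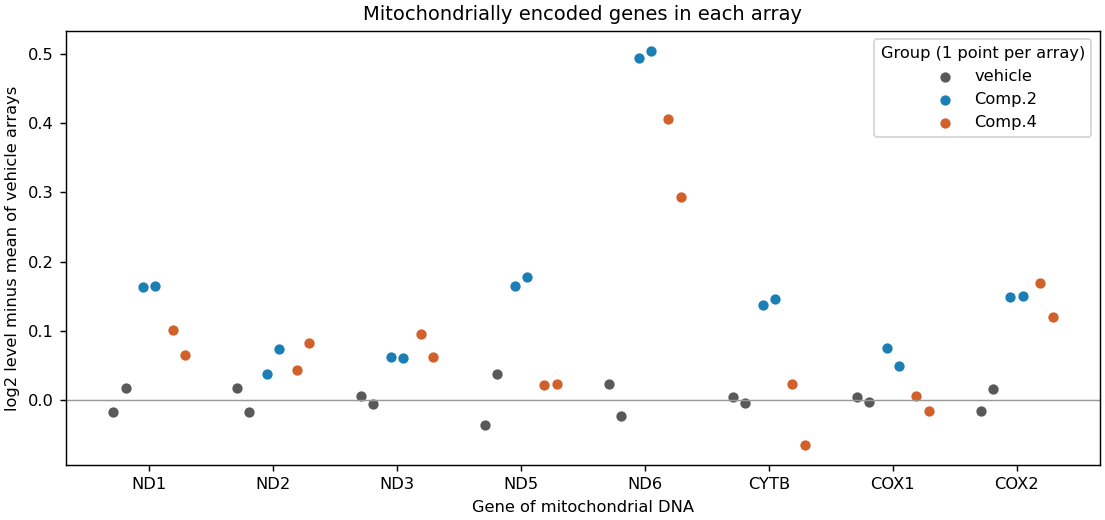
Log2 level of each of the 8 mitochondrially encoded genes in each array, minus the mean of the vehicle arrays (1 point per array, coloured by group). All Comp.2 points lie above both vehicle points of their gene, and ND6 has the largest differences, 0.50 under Comp.2 and 0.35 under Comp.4.

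The highest value of the table was 13.26. ND1, ND2, ND5, CYTB, COX1 and COX2 lay between 12.54 and 13.15 over all arrays, ND3 between 11.81 and 11.91, and ND6 lower. The first 6 of these genes held ranks between 1 and 44 of 53617 probe sets in every array. When the deposited values were quantile normalized a further time, the median mitochondrial difference was 0.04 under Comp.2 and 0.00 under Comp.4. CYTB turned to -0.03 under Comp.2. That step sets a value by its rank in the array, which leaves genes at the top ranks little room to differ. The cause of the change was not tested. With a variance prior that follows signal intensity, limma called ND6, ND5, ND1 and COX2 higher under Comp.2 (adjusted p = 0.000679, 0.0182, 0.0124 and 0.025), a setting in which 1.01% of all genes were called higher and 0.723% lower. In a fit to brighter genes alone, ND6 was the 1 OXPHOS gene called under Comp.2, beside 1.38% of those genes called higher and 0.706% lower.

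Nuclear genes under Comp.2 were as often above as below vehicle: 37 of 72 had a positive difference. Without adjustment, 1 of them was higher and 3 were lower at p under 0.05, where 6.23% of all genes were higher and 4.94% lower. Both Comp.2 arrays were above vehicle in 19 nuclear genes and below it in 16, beside 22.7% and 21% of all genes. The medians were 0.00 for complex I (30 genes), -0.09 for complex II (2), -0.01 for complex III (7), -0.02 for complex IV (17) and 0.03 for complex V (16).

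The largest Comp.2 difference among nuclear genes was that of COX7B, a small nuclear subunit of complex IV. COX7B was at 7.51 and 7.54 in vehicle, 7.21 and 7.19 under Comp.2, and 7.53 and 7.66 under Comp.4. The Comp.2 arrays were below the other 4, and vehicle and Comp.4 overlapped. The level under Comp.2 was 1.25-fold below vehicle (log2 -0.33, SE 0.07, limma adjusted p = 0.224), which did not pass; with the intensity-dependent prior it did (adjusted p = 0.04).

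Other nuclear genes at the low end under Comp.2 were NDUFS1, the large iron-sulfur subunit of complex I (-0.22), the UQCRH-like gene UQCRHL (-0.17), the accessory subunit gene NDUFB9 (-0.16) and NDUFS3, another core subunit of complex I (-0.15). UQCRHL closely resembles UQCRH, whose probe set also carries the UQCRHL symbol, so the source of its signal is uncertain. At the high end were ATP5MJ, a small ATP synthase subunit (0.19), NDUFA8, an accessory subunit of complex I (0.19), and COX7C of complex IV (0.17). These 7 genes were picked among members whose Comp.2 arrays did not overlap vehicle, so that pattern is no result about them. Of all genes, 22.7% had both Comp.2 arrays above vehicle and 21% below. None of the 7 passed the test (limma adjusted p = 0.368 to 0.602). The NDUFB9 difference was -0.06 without Comp.2 replicate 1 and -0.25 without Comp.2 replicate 2, and that of NDUFS3 lay between -0.21 and -0.10 when single arrays were left out.

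The next comparison asked what Comp.4 did. Here 52 of the 72 nuclear genes were above vehicle, and both Comp.4 arrays were above both vehicle arrays in 37 of them and below in 10, beside 27.2% and 22.2% of all genes. Without adjustment 19 nuclear genes were higher and 3 lower at p under 0.05, where 8.64% of all genes were higher and 7.88% lower. The 60 nuclear members brighter than the median gene had a median difference of 0.13. It was -0.01 for the 9998 other protein-coding genes brighter than the median gene, and levels were not matched beyond that limit. The 12 dimmer members had a median of 0.02.

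Within complex I, the 25 accessory subunits, which surround the catalytic core, had a median of 0.15 and the 5 nuclear core subunits 0.02. NDUFB7, an accessory subunit of the membrane arm, was at 7.04 and 6.98 in vehicle, 7.08 and 7.05 under Comp.2, and 7.36 and 7.40 under Comp.4. The Comp.4 arrays stood clear of the other 4. NDUFB7 was 1.29-fold above vehicle (log2 0.37, SE 0.07, limma adjusted p = 0.0994). NDUFA2, an accessory subunit of the peripheral arm, was at 8.04 and 8.01 in vehicle, 8.05 and 8.00 under Comp.2, and 8.36 and 8.38 under Comp.4. Vehicle and Comp.2 overlapped, and Comp.4 was 1.27-fold above vehicle (0.34, SE 0.07, limma adjusted p = 0.107).

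Members of the same complex also lay far on the other side. NDUFS1, the core subunit that carries iron-sulfur clusters of the electron path, was at 8.97 and 8.86 in vehicle, 8.71 and 8.69 under Comp.2, and 8.56 and 8.55 under Comp.4. The groups did not overlap, in the order vehicle, Comp.2, Comp.4. Its Comp.4 level was 1.28-fold below vehicle (-0.36, SE 0.07, limma adjusted p = 0.109). NDUFA3, an accessory subunit of the membrane arm, was at 6.34 and 6.27 in vehicle, 6.19 and 6.26 under Comp.2, and 5.88 and 6.00 under Comp.4. The Comp.4 arrays were the lowest, 1.29-fold below vehicle (-0.37, SE 0.08, limma adjusted p = 0.116). NDUFA10 (-0.17) lay below vehicle in both arrays too. The remaining core subunits NDUFS3, NDUFS7, NDUFV1 and NDUFV2, of which NDUFV1 binds NADH, differed from vehicle by -0.04 to 0.05 and overlapped it.

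Complex II was represented by its membrane anchors SDHC and SDHD, which differed by 0.10 and 0.15 under Comp.4. In complex III the core proteins UQCRC1 and UQCRC2 stayed close to vehicle under both compounds: UQCRC1 was at 8.94 and 8.95 in vehicle, 8.95 and 8.93 under Comp.2, and 8.92 and 8.96 under Comp.4. The Comp.4 interval of UQCRC1 was -0.17 to 0.16. Among the small complex III subunits, UQCR11 was higher by 0.30 and UQCR10 by 0.21 under Comp.4 (limma adjusted p = 0.148 and 0.227), both without overlap.

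In complex IV, the 11 nuclear genes that are not tissue isoforms had a median of 0.13 under Comp.4. COX7A2 (0.28), COX7C (0.27), COX4I1 (0.18) and COX5A (0.18) were above vehicle in both arrays, and COX8A was below it (-0.26), with 10.75 and 10.50 in vehicle against 10.40 and 10.34. The vehicle arrays of COX8A differed by about as much as the groups did, and its difference was -0.13 without vehicle replicate 1 and -0.38 without vehicle replicate 2. The 6 isoform genes known from muscle, lung or testis (COX4I2, COX6A2, COX6B2, COX7A1, COX7B2 and COX8C) had low levels, from 2.99 to 5.69 over all arrays. COX6A2, the heart and muscle isoform of subunit 6A, had the largest difference among them, with 5.29 and 5.05 in vehicle, 5.08 and 5.17 under Comp.2, and 5.54 and 5.52 under Comp.4 (0.36, SE 0.10, limma adjusted p = 0.157). The other 5 isoforms lay between -0.14 and 0.23. Low levels were not particular to the isoforms. Among the 11 other nuclear genes of complex IV, COX6A1 had a mean of 2.79 over all arrays and COX6C 5.32.

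In complex V, the catalytic head had members on either side. ATP5F1C, the gamma subunit that turns inside the head, was at 11.09 and 11.15 in vehicle, 11.27 and 11.28 under Comp.2, and 11.49 and 11.41 under Comp.4. The 3 groups did not overlap, and Comp.4 was 1.26-fold above vehicle (0.33, SE 0.07, limma adjusted p = 0.119). The alpha and beta subunits ATP5F1A and ATP5F1B were at 0.04 and -0.04, and the delta subunit ATP5F1D at -0.17, a value that lay between -0.24 and -0.09 when single arrays were left out. The inhibitor of the enzyme, ATP5IF1, differed by 0.01. The 11 other subunits, of the membrane part and the stalk, had a median of 0.15, with ATP5MJ (0.30) and ATP5ME (0.28) highest, and both Comp.4 arrays were above vehicle in 8 of them and below in 0, beside 27.2% and 22.2% of all genes.

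**Figure D3:**
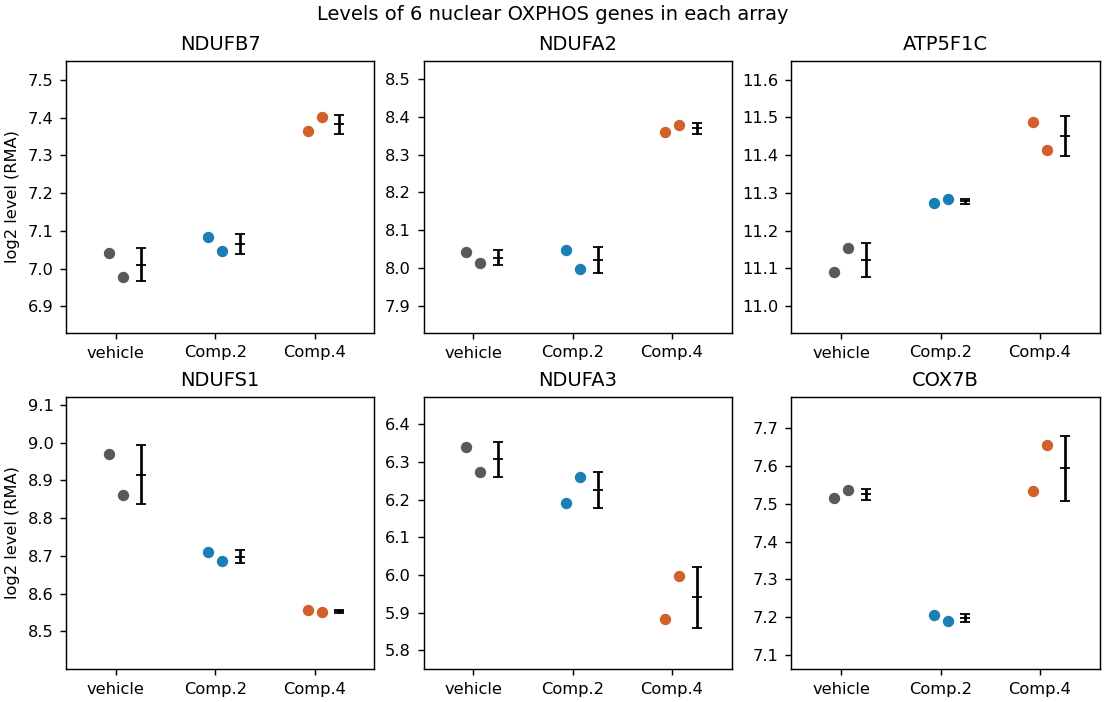
Deposited log2 level of 6 nuclear genes in each array (points, 2 per group) with the mean and SD of the group beside them; every panel spans the same range of log2 units, around the gene's own level. NDUFB7, NDUFA2 and ATP5F1C are highest under Comp.4, NDUFS1 and NDUFA3 lowest under Comp.4, and COX7B lowest under Comp.2.

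The call on the Comp.4 members depends on the variance model. With a prior that follows signal intensity, limma called 14 OXPHOS genes higher and 2 lower at adjusted p under 0.05, beside 2.18% and 3.3% of all genes. The higher genes were ND6, COX2, NDUFA2, NDUFA6, NDUFB1, NDUFB7, UQCR10, UQCR11, COX4I1, COX5A, COX7A2, COX7C, ATP5F1C and ATP5PD, and the lower ones NDUFS1 and NDUFA3. When only genes brighter than the median gene were fitted, 9 were called higher and 2 lower, beside 3.04% and 4.46% of those genes.

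Gene span, the distance from the first to the last base of a gene, moved with the Comp.4 difference among protein-coding genes brighter than the median gene. Nuclear OXPHOS genes are short, with a median span of 8608 bases against 26816 for measured protein-coding genes. Among the brighter protein-coding genes that are no OXPHOS member, the median Comp.4 difference was 0.05 in short genes (under 17058 bases), 0.00 in genes of middle span and -0.07 in long genes (over 52175 bases); these limits divide the genes into 3 classes of equal size. The OXPHOS genes had 0.14 among short genes (44 genes, 35 above 0), 0.10 in the middle class (14 genes, 11 above 0) and -0.12 among long genes, a class that held only NDUFS4 and NDUFA10 of them. In medians, the members were above the other genes of their own class among short and middle genes, and below them among long genes. The classes do not equalise span. Median spans of members were 6633.5 bases in the short and 28807 in the middle class, against 8027 and 30306.5 for other genes. Across genes, which are not independent replicates, Spearman's rho between span and the Comp.4 difference was -0.34 over the 9998 other genes and -0.09 over the 60 members. Under Comp.2 the same classes of other genes had medians of 0.00, -0.01 and -0.02. The part of span in the OXPHOS result was not tested.

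**Figure D4:**
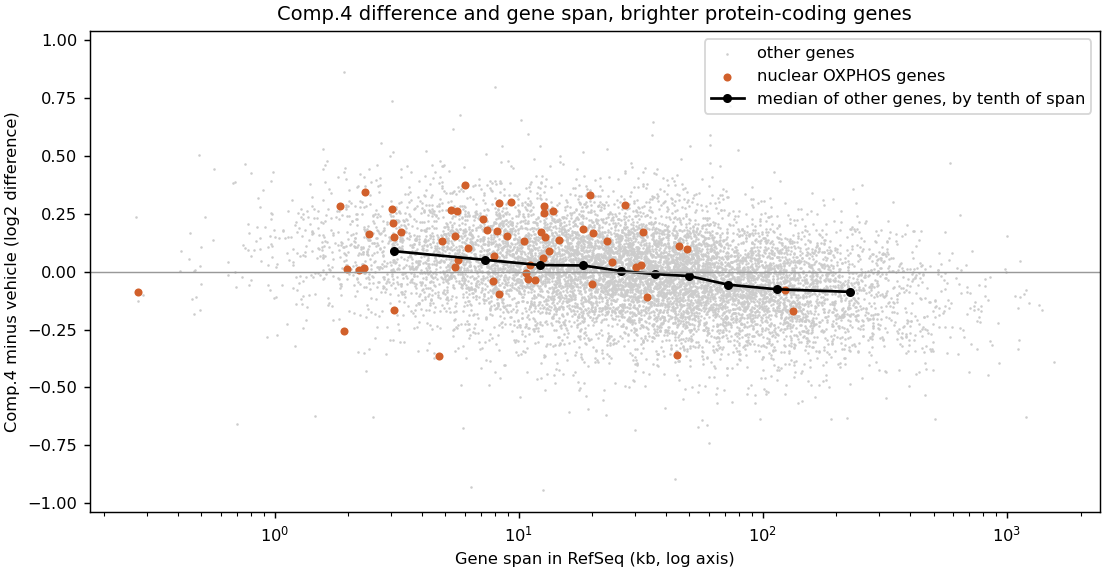
Comp.4 minus vehicle (log2 difference) against the gene's span in kilobases on a log axis, for protein-coding genes brighter than the median gene; grey points are other genes, orange points the 60 nuclear OXPHOS genes, and the line joins the medians of the other genes in 10 bins of span. The line falls from short to long genes, and most OXPHOS genes sit at the short end and above 0.

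At their common dose and day, Comp.4 and Comp.2 differed by a median of 0.09 in the nuclear genes and -0.07 in the mitochondrial genes, beside 0.01 over all genes. Of the 72 nuclear genes 57 were higher under Comp.4. Both Comp.4 arrays were above both Comp.2 arrays in 34 and below in 7, beside 23.7% and 21.6% of all genes, and without adjustment 15 were higher and 3 lower at p under 0.05, where 7.52% and 7.45% of all genes were. Of the 8 mitochondrial genes, 5 were lower under Comp.4 without overlap (ND1, ND5, ND6, CYTB and COX1, by -0.07 to -0.16), and ND3 was higher by 0.02. Leaving out single arrays moved the ND6 difference between -0.21 and -0.09.

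The largest difference between the compounds was that of the dim isoform gene COX6A2 described above, 0.40 higher under Comp.4 than under Comp.2 (SE 0.10, limma adjusted p = 0.15). COX7B and NDUFB1 followed closely and were brighter. COX7B was 0.40 higher under Comp.4 than under Comp.2 (SE 0.07, limma adjusted p = 0.101). NDUFB1, an accessory subunit of complex I, was at 7.84 and 7.91 in vehicle, 7.66 and 7.81 under Comp.2, and 8.14 and 8.13 under Comp.4. Its Comp.2 arrays were lowest and its Comp.4 arrays highest, and the compounds differed by 0.40 (SE 0.08, limma adjusted p = 0.108). NDUFA2 (0.35), NDUFB7 (0.32) and NDUFB6 (0.31) followed, and NDUFA3 (-0.28), ATP5F1D (-0.28), COX8A (-0.24) and NDUFS5 (-0.17) lay on the other side. The NDUFS5 difference was -0.25 without Comp.4 replicate 1 and -0.09 without Comp.4 replicate 2. For genes with no visible difference the arrays allow some: the 95% interval between the compounds was -0.16 to 0.17 for UQCRC1 and -0.18 to 0.16 for ATP5F1B. With the intensity-dependent prior limma called 10 members higher (the nuclear COX7B, NDUFB1, NDUFA2, NDUFB7, NDUFB6, COX7A2, COX5A, NDUFA6, ATP5F1C and COX4I1) and CYTB and ND5 lower, beside 2.16% and 2.64% of all genes. The fit to brighter genes alone called NDUFB1, COX7B, NDUFA2, NDUFB7, NDUFB6 and COX5A higher and no member lower, beside 2.89% and 3.5% of those genes.

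Genes that build, feed or regulate the complexes were described from 11 lists holding 155 measured genes. None passed the test in any comparison, where 0.196% of all genes were called under Comp.2, 0.147% under Comp.4 and 0.371% between the compounds. At such shares a count of 0 does not set these genes apart. Their medians were -0.03 under Comp.2, 0.03 under Comp.4 and 0.05 between Comp.4 and Comp.2. Without adjustment 6 were higher and 17 lower under Comp.2, where 6.23% and 4.94% of all genes were. Under Comp.4 17 were higher and 10 lower, beside 8.64% and 7.88% of all genes, and between the compounds 20 were higher and 8 lower, beside 7.52% and 7.45%.

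The 56 assembly factors, which put the complexes together, had medians of -0.02 under Comp.2, 0.08 under Comp.4 and 0.09 between the compounds. TMEM126B, an assembly factor of complex I, had the widest gap between the compounds of all 155 genes. It was at 7.26 and 7.43 in vehicle, 6.99 and 7.08 under Comp.2, and 7.68 and 7.64 under Comp.4. The groups did not overlap, with vehicle in the middle, and the compounds differed by 0.62 (SE 0.09, limma adjusted p = 0.0558). COQ3, a methyltransferase of ubiquinone synthesis, had the same order, with 6.60 and 6.71 in vehicle, 6.23 and 6.43 under Comp.2, and 6.78 and 6.95 under Comp.4 (0.54 between the compounds, limma adjusted p = 0.101).

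Among other assembly factors, CMC2 (0.40) and SURF1 (0.41), both of complex IV, and TMEM242 (0.28), of complex V, were above vehicle under Comp.4. NDUFAF8, of complex I, was above vehicle under both compounds (0.38 and 0.28), as was COQ10B, a ubiquinone-binding protein gene (0.40 and 0.23). COA7 was below vehicle under Comp.2 (-0.31), SDHAF4 under Comp.4 (-0.31). The vehicle arrays of SDHAF4 lay far apart, at 6.39 and 6.77, with 6.32 and 6.21 under Comp.4. UQCC2 and UQCC3 of complex III were higher under Comp.4 than under Comp.2 by 0.38 and 0.34, and SDHAF3 by 0.31. DMAC2L, a gene of the complex V list, differed by -0.09 under Comp.2. SCO2, a copper chaperone gene of complex IV and a known p53 target, was not analysed here.

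The 15 regulators of mitochondrial biogenesis had medians of -0.06 under Comp.2 and -0.07 under Comp.4. PPRC1, a coactivator related to PGC-1, was at 8.14 and 8.13 in vehicle, 7.96 and 7.87 under Comp.2, and 7.76 and 7.71 under Comp.4 (Comp.4 difference -0.40, limma adjusted p = 0.0963). MYC differed by -0.36 and -0.30. The 3 groups of PPRC1 did not overlap, and all arrays of both compounds were below vehicle in MYC. PPARGC1A, which encodes PGC-1 alpha, differed by -0.11 and 0.03, NRF1 by -0.14 and -0.11, GABPA by -0.13 and -0.07, and TFAM, the packaging and transcription factor of mitochondrial DNA, by -0.16 and 0.01.

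The 26 genes that maintain or express mitochondrial DNA had medians of -0.04 under Comp.2 and 0.00 under Comp.4, beside mitochondrial transcripts at 0.15 and 0.07. POLG2, the accessory subunit of the mitochondrial DNA polymerase, had the largest differences, -0.26 and -0.29. POLG2 was at 6.13 and 6.39 in vehicle, 5.87 and 6.13 under Comp.2, and 6.09 and 5.86 under Comp.4. Its vehicle arrays thus differed by about as much as the groups did. MTERF2 was 0.31 lower under Comp.4 than under Comp.2 (log2 -0.31). The 16 genes of the citric acid cycle had medians of 0.00 and -0.03. CS, citrate synthase, was at -0.35 under Comp.4, DLD at 0.26 under Comp.2, and SUCLG1 was 0.26 higher under Comp.4 than under Comp.2. The 15 mitochondrial chaperones and proteases had medians of -0.06 and -0.01, with GRPEL2 at -0.28 and -0.29 and LONP1 at 0.24 between the compounds. Of the 7 carriers of adenine nucleotides and phosphate, SLC25A3, the phosphate carrier that supplies ATP synthase, was at -0.37 under Comp.4, and the testis isoform gene SLC25A31 at 0.19 under Comp.2.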

How the data were processed

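Total RNA of 6 A549 samples was labelled with biotin and hybridised to arrays. The deposited values are log2 levels of 53617 probe sets, which the authors made with RMA; Transcriptome Analysis Console 2.0 and Expression Console 1.3.1 are also named, per the submitters' processing notes. The genome build was not given in the sources used here. RMA equalises the distributions of the arrays, so a change shared by most transcripts cannot be seen.

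The OXPHOS members and the gene lists were chosen with earlier results of these data known. Of the probe sets, 23871 had 1 symbol, 1842 several and 27904 none here; 22569 of the first were found in RefSeq (GRCh38.p14) by Entrez number, which updated 90 symbols. The probe set with the highest mean stood for a gene. Among those with 1 symbol, NDUFA9 has a second, dimmer one. Its differences were 0.05, 0.17 and 0.13 (Comp.2 and Comp.4 against vehicle, Comp.4 against Comp.2), against 0.02, 0.11 and 0.09. NDUFS3, NDUFC1, COX6A1 and UQCRHL also occur in probe sets with several symbols, which were left out. Limma 3.58.1 (R 4.3.3) fitted a mean per group to all 6 arrays over 22395 genes, with 3 contrasts, two-sided p-values adjusted by Benjamini-Hochberg within a contrast, a threshold of 0.05 and 95% intervals; the code was tested on simulated data. A permutation of 2 against 2 arrays cannot go below 0.333. Lists are described by counts and medians, with no p. Gene spans and promoter windows come from RefSeq.

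Genes named per comparison were the 5 largest differences in each direction among genes above the median gene whose arrays did not overlap, all mitochondrial genes, the complex IV isoforms, the largest difference of each other list, and PPARGC1A, NRF1, GABPA, TFAM and SCO2; others were named after their values were seen. Replicate numbers did not pair the samples (correlations of deviations 0.03, 0.01 and -0.04). There were 17 alternative settings; gene span classes were added after seeing the data.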

Additional observations from a re-analysis of the deposited data

Results flagged for a closer look

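A signal lay in probe sets that entered no gene comparison. The array identifiers of the mitochondrial genes form a run from ND1 to ND6, and 15 probe sets in that run carry no gene name here. Their median Comp.2 difference from vehicle was 0.845 on the log2 scale (range 0.23 to 1.40), against 0.00 over all 27904 unnamed probe sets. The median levels of the 15 were 8.63 in vehicle, 9.49 under Comp.2 and 8.86 under Comp.4. Both Comp.2 arrays were above both vehicle arrays in 14 of them, beside 20.9% of all 53617 probe sets, and 6 were among the 100 highest Comp.2 differences of the table. None was called in the limma fit over all probe sets, where 0 probe sets of the whole table were called under Comp.2 and 4.3% were higher at an unadjusted p under 0.05, as were 14 of the 15. Under Comp.4 the median was 0.12, with 8 of the 15 above vehicle in both arrays and 2 below, beside 24.3% and 21.8% of all probe sets. Both Comp.4 arrays were below both Comp.2 arrays in 13 of the 15, beside 20.4% of all probe sets (median difference -0.67). The probe set annotated UIMC1 also has its identifier in this run, between CYTB and ND6, and differed by 0.95 under Comp.2. Of the probe sets from ND1 to ND6, 25 had a vehicle level above the median gene. Over these 25, Spearman's rho between vehicle level and Comp.2 difference was -0.83. The vehicle level is also subtracted in that difference, which by itself draws rho below 0. These 25 share arrays and normalization, and the named genes other than ND6 and UIMC1 hold the highest levels. The run was chosen after its values were seen, identifiers do not name a transcript, and the source of these signals was not tested.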

How the results depend on the processing

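No OXPHOS gene was called in any comparison by 15 of the 17 alternative settings: a robust prior, protein-coding genes only, every single-symbol probe set, probe set means, all probe sets, centring, repeated quantile normalization, the 2 groups alone, the replicate block, and leaving out each array in turn. These settings called few genes at all: of the 15, 5 called no gene of all those fitted under Comp.2, 8 under Comp.4 and 7 between the compounds, which fixes the member count at 0, and the others called at most 0.364%, 0.205% and 0.457%. The count was 0 with the replicate block in each comparison; the numbers share no stated source. The exceptions were the intensity-dependent prior, with 5 calls under Comp.2, 16 under Comp.4 and 12 between the compounds (beside 1.01% of all genes higher and 0.723% lower, 2.18% and 3.3%, and 2.16% and 2.64%), and the fit to brighter genes alone, with 1 (ND6), 11 and 6, beside 1.38% higher and 0.706% lower, 3.04% and 4.46%, and 2.89% and 3.5% of the brighter genes. The cause was not tested.

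Brighter genes alone gave medians of 0.11 over all and 0.13 over nuclear members under Comp.4, and 0.095 over nuclear members between the compounds. Centring on the brighter genes gave 0.11 over all members under Comp.4, and mitochondrial medians of 0.15, 0.086 and -0.068 (Comp.2 and Comp.4 against vehicle, then Comp.4 against Comp.2). Repeated quantile normalization gave mitochondrial medians of 0.041, 0 and -0.013 and a nuclear median of 0.10 between the compounds. Leaving out each array in turn gave medians of all members from -0.0038 to 0.030, from 0.075 to 0.12 and from 0.068 to 0.093 in that order. Nuclear medians ran from -0.015 to 0.018, from 0.081 to 0.13 and from 0.080 to 0.10, and mitochondrial medians from 0.13 to 0.15, from 0.063 to 0.073 and from -0.088 to -0.060.

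Signs turned in small differences. Repeated quantile normalization gave COX7B2 -0.013 and CYTB -0.028 under Comp.2 and ND3 -0.0064 between the compounds; centring gave COX1 0.0093 under Comp.4 and COX2 0.00058 between the compounds. Without single arrays, ranges that crossed 0 under Comp.2 were those of COX6A2 (-0.16 to 0.081), COX7B2 (-0.040 to 0.049) and COX8C (-0.077 to 0.11). Under Comp.4 they were those of COX1 (-0.016 to 0.005), COX7A1 (-0.11 to 0.24), COX8C (-0.0021 to 0.19), CYTB (-0.066 to 0.022) and ND5 (-0.015 to 0.059). Between the compounds they were those of COX2 (-0.030 to 0.019), COX6B2 (-0.088 to 0.062) and ND2 (-0.012 to 0.027). With 2 arrays a group, a difference within the half-width of its interval could not be told from 0. That half-width had a median of about 0.18 and reached 0.35, without adjustment for the number of genes. Larger differences of members did not pass the adjusted test of the main fit either. The depth of arrays is signal over background: 12 nuclear members were no brighter than the median gene, and background makes differences of dim probe sets too small.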
